A study of Drosophila melanogaster with 8 samples.

Results

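The wild type H3K36me3 landscape of early Drosophila melanogaster embryos was described from the 2 wild type samples of a series of 4 samples. They were chosen by their genotype label alone, and the other 2 samples were dKDM4A mutant embryos. All were whole embryos of 2–4 hr, pooled from population cages, and chromatin precipitated with an anti-H3K36me3 antibody (IP, Cy5) was hybridized together with its input DNA (Cy3). The embryos called wild type here came from a precise P-element excision line made from the mutant stock, which carries the SUPor-P insertion KG04636 in Kdm4A, so they share its y1 w67c23 background and are not a natural wild type strain. Each sample covered 2 tiling array designs, which were joined into 1 track of 475395 probes of 45 to 60 bases, with a median of 220 bp from the start of a probe to the start of the next.

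H3K36me3 is trimethylation of lysine 36 in the tail of histone H3. In Drosophila the enzyme Set2 places it while it travels with elongating RNA polymerase II, so that the mark covers the bodies of transcribed genes and is strongest toward their 3′ ends, and enzymes of the KDM4 family can remove it. At 2–4 hr the zygotic genome is being switched on while the nuclei finish their rapid divisions, and the chromatin of a whole embryo mixes all of its cell types. In Drosophila, chromosome 4 and the pericentric sequences are rich in repeats and HP1, the protein that binds methylated lysine 9 of the same histone tail, yet hold active genes. The array files gave neither gene names nor probe sequences and the sources used here tied its coordinates to no genome build (the study's methods name Release 5 for their definition of heterochromatin), so places are given by the coordinates of the array design, and genes within them could not be named.

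The level of a probe is its log2 IP/input, minus the median of its array, and a level of 0 is therefore that of the middle probe and not an absence of the mark. On the wild type arrays the median background-subtracted brightness was 83.4 to 128 in the IP channel and 609 to 977 in the input channel. Between 85.6% and 93.3% of probes were well above background in IP and 96.7% to 98.9% in input, and at most 15 probes of an array were saturated in IP and at most 1 in input. Replicate 1 and replicate 2 were labelled biological replicates and were scanned on different days, so replicate and scan day cannot be told apart.

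Levels in wild type embryos fell into 2 populations. Most probes lay in a narrow low population with its mode at −0.33 in replicate 1 and at −0.48 in replicate 2. A broad high population had its mode at 4.95 in replicate 1 and at 5.85 in replicate 2, which is IP/input 30.9-fold and 57.7-fold that of the middle probe. The trough between them was shallow, and its least populated level lay at 3.25 in replicate 1 and at 3.85 in replicate 2, or at 3.05 and 3.85 without the probes that lacked a measured input. A level of 1 or more was held by 27.2% of probes in replicate 1 and by 29.9% in replicate 2, and a level of 3.5 or more by 14.4% and 16.0% of probes in the same order of replicates. The marked fraction of the array was thus of similar size in both replicates, while replicate 2 had the wider range, with an SD over probes of 2.19 against 1.98 in replicate 1.

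**Figure D1:**
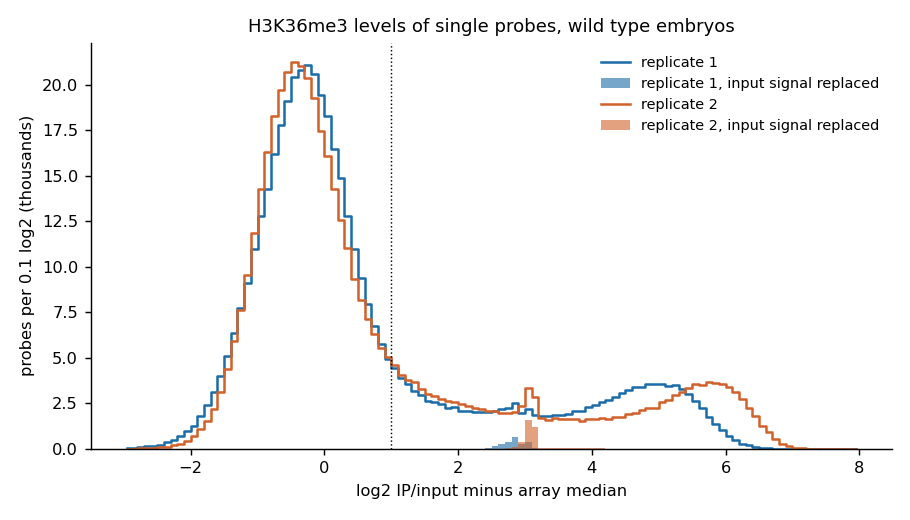
Number of probes, in units of 1000, in each 0.1 step of log2 IP/input minus the array median, for replicate 1 and replicate 2 of wild type embryos. Filled areas are probes whose input signal the scanner software had replaced by a substitute value, and the dotted line marks a level of 1. Both replicates show a low peak below 0 and a broad high one, at 4.95 in replicate 1 and 5.85 in replicate 2, and the replaced probes make the small spike near 3.

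The small spike near 3 in both histograms was made by probes without a measured input. Where the scanner software replaced both signals of a probe by a substitute value (2118 probes in replicate 1 and 3216 in replicate 2), the level came out at a median of 2.84 in replicate 1 and 3.09 in replicate 2. Control spots without a genomic target had medians of 2.71 and 2.88 on the 2 arrays of replicate 1 and of 3.02 and 3.07 on those of replicate 2, with a median brightness of 1.20 to 2.00 in IP and 1.87 to 2.79 in input. In all, 4331 probes (0.911%) had a replaced input in at least 1 replicate, and they made up 17.8% of the probes with a mean level between 2.5 and 3.2. A level near 3 therefore had 2 sources on these arrays, and without these probes 27.3% of the rest lay at 1 or more, against 27.9% of all probes (mean of both replicates).

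The longest interval of this kind lay on the X chromosome, at chrX:2652110-2780448 (128 kb, 477 probes). Only 20.1% of its probes in replicate 1 and 18.7% in replicate 2 were well above background in input, against 99.2% and 96.7% of the other X probes. Its median brightness was 2.62 in IP and 3.82 in input in replicate 1, and 1.56 in IP and 2.27 in input in replicate 2. The other X probes had a median brightness of 93.9 in IP and 736 in input in replicate 1, and of 69.8 in IP and 517 in input in replicate 2. Its level had a median of 2.85 in replicate 1 and 3.07 in replicate 2, close to the control spots without a target. In the dKDM4A mutant samples 22.01% and 21.6% of the same probes were well above background in input. A run of raised levels here is a ratio of 2 signals near background, and what made both channels dim was not tested.

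The sequences of the array differed in how they were marked. Chromosome 4 stood highest, with a mean level of 1.90 in replicate 1 and 2.34 in replicate 2, against 0.69 and 0.86 over the 5 large arms (2L, 2R, 3L, 3R and X), a difference of 1.34 ± 0.19 (SD, n = 2). Unplaced heterochromatic scaffolds of chromosome 2 (2h) averaged 1.51 and 1.84, those of the X (Xh) 1.60 and 1.92, and the 87 probes of chromosome 4 scaffolds (4h) 1.58 and 1.92. Scaffolds of chromosome 3 (3h) averaged 0.77 and 1.01 and the unassigned sequence U 0.75 and 1.01. Over probes of all lengths, both were close to the arms. Scaffolds of the Y (Yh) averaged only 0.07 and 0.29. Probes of Yh were also dim, with a median brightness of 28.2 in IP and 214 in input, against 103 and 793 on the arms. Over all h scaffolds the mean was higher than that of the arms by 0.41 ± 0.08 (SD, n = 2), in both replicates. With 2 replicates an exact sign-flip test cannot go below p = 0.5, so none was made on these means. The size of the excess depended on the background correction: with normexp, which models background instead of taking the corrected signals, chromosome 4 stood 0.91 above the arms and the h scaffolds 0.12, and 3h (−0.07), U (−0.17) and Yh (0.02) changed the sign of their difference.

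The mitochondrial genome carries no histones, so its DNA is without the mark. Its 49 probes averaged −0.40 in replicate 1 and −0.47 in replicate 2, and none reached a level of 1 in the mean of both replicates. The low modes of all probes, at −0.33 and −0.48, lay within 0.1 of these values. Mitochondrial probes were much brighter in input than those of the arms, with a median of 5030 against 793, and were all 60 bases long. Whether their level also holds for unmarked probes of dimmer input was not tested. Their distance from the arms depended on the processing, with a mean lower than that of the arms by 1.21 ± 0.17 (SD, n = 2) here, against differences of −1.69 with normexp and −2.76 with loess.

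**Figure D2:**
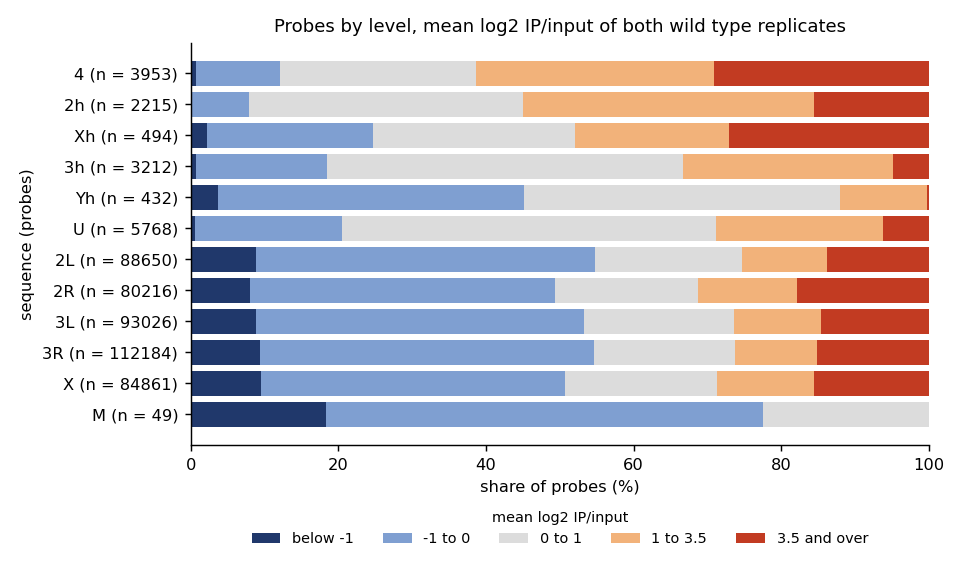
Share of probes (%) in 5 ranges of the mean log2 IP/input of both wild type replicates, for each sequence of the array with its number of probes. Chromosome 4, 2h, 3h and U have fewer probes below 0 than the 5 arms and more between 1 and 3.5, Yh has nearly none at 3.5 or more, and no mitochondrial probe reaches 1.

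The shape of the distribution differed as well as its mean. On chromosome 4, 12.1% of probes lay below 0, as did 17.0% of probes of the h scaffolds and 20.5% of those of U, against 52.7% on the arms. Intermediate levels of 1 to 3.5 were held by 32.3% of chromosome 4 probes, 39.5% of 2h probes and 28.4% of 3h probes, against 12.1% on the arms. High levels of 3.5 or more were held by 29.2% of chromosome 4 probes and 27.1% of Xh probes, but by 15.5% on 2h, 4.83% on 3h and 6.22% on U, against 15.3% on the arms, and on Yh by 1 of 432 probes. Among the probes at 3.5 or more, the median level was 4.69 on chromosome 4, 4.53 on 2h, 4.05 on 3h and 4.37 on U, against 5.12 on the arms. Chromosome 4 and the pericentric scaffolds thus had fewer low probes than the arms, and their marked probes were less strongly enriched. The input of chromosome 4 was dimmer than that of the arms, with a median of 426 against 793, while its IP was brighter, 188 against 103.

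The 5 arms differed from each other by less than chromosome 4 or 2h differed from them. Relative to the mean of all arms, 2R stood 0.18 higher and 2L 0.10 lower. For 3h and U the difference was 0.11 and 0.10. Arm 2R had the highest mean, 0.87 in replicate 1 and 1.05 in replicate 2, and 2L the lowest, 0.59 and 0.77. The X averaged 0.73 and 0.91 and lay between the autosomal arms in both replicates. Each array was centred on its own median. Arms 2L and 2R and scaffolds 2h and 3h lay on the first design. Arms 3L and X, chromosome 4, U, Xh and Yh lay on the second. A small difference between sequences on different designs therefore cannot be told apart from a shift between designs. Arm 3R was split over both array designs, and its mean in the portion on the second design was lower than in the portion on the first by less than 0.1 in each replicate (0.62 against 0.68 in replicate 1, 0.76 against 0.85 in replicate 2).

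Windows of 2 kb with at least 3 probes were tested against the array median with limma, on a fit over all 4 samples of the series in which only the wild type mean was read. Of 57266 windows, 19781 (34.5%) were above the array median and 23780 (41.5%) below it at an adjusted p of 0.05. The smallest differences called were 0.28 above and −0.26 below, and of the windows above, 15316 had a mean of 1 or more and 8350 of 3.5 or more. The 2 replicates lay on the same side of 0 in 43335 of the 43561 windows called. This follows in large part from the call, which was made on the mean of the same 2 values. Neighbouring windows share domains and are not independent, so the counts describe coverage and not separate events. On chromosome 4, 426 of 531 windows (80.2%) were above the median and 12 below. The share above was 82.9% on 2h, 64.6% on 3h, 65.0% on Xh, 63.9% on U and 37.7% on Yh, against 33.2% on the arms, where it ranged over 30.7% on 2L and 38.6% on 2R. Only 2.91% of the windows of the h scaffolds lay below the median, against 43.0% of those of the arms, and none of the 7 mitochondrial windows lay above it. The split depended on the zero point: 23581 windows were above and 3575 below when arrays were centred on their mode, and 16254 above and 37035 below without centring.

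The 10 windows with the highest wild type mean, among windows above the median with at least 5 probes and measured input in at least 80% of them, all lay on the arms, at means of 6.29 to 6.57. The highest was chr3L:17518001-17520000, at 6.30 in replicate 1 and 6.83 in replicate 2, 6.57 ± 0.38 (SD, n = 2), with mean processed intensities of 356971 in IP and 5853 in input in replicate 1 and of 516865 in IP and 6783 in input in replicate 2. The next were chr3L:6722001-6724000 at 6.195 in replicate 1 and 6.90 in replicate 2, chr3L:13478001-13480000 at 6.03 and 6.89, chr2R:16670001-16672000 at 6.15 and 6.70, and chrX:10314001-10316000 at 6.07 and 6.70. The gap between neighbours in this order was smaller than the SD between replicates. Replicate 2 was higher in each of the 10. These windows were bright in both channels, and with an intensity-dependent loess fit within each array the first lay at −0.03 and the second at 0.04, while the other 8 had means above 0.

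The highest window of each other sequence was lower. On chromosome 4 it was chr4:220001-222000, at 5.41 in replicate 1 and 6.20 in replicate 2. On 2h it reached 5.19 and 6.21, on U 5.00 and 5.93, on Xh 5.06 and 5.82, and on 3h 4.48 and 5.17. On Yh the highest reached only 0.99 and 1.34. These windows were chosen among those called above the array median, so their call was fixed by the choice. The weakest was that of Yh (limma, adjusted p = 1.36e-09), which lost its call with normexp (0.35) and lay at −0.07 with loess.

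Domains were runs of at least 3 probes whose 5-probe moving average was 1 or more in both replicates, without a gap of over 1000 bp between probes. They numbered 4127 and held 25.1% of probes. In 48 of them at least 50% of the probes were not well above background in input, among them the longest of all, the 72.0 kb run at chrX:2708450-2780448 within the dim interval, and the description goes on with the other 4079, a choice made after their values were seen. These had a median length of 4706 bp, with 10% below 1037 bp and 10% above 15214 bp, and covered 27.3 Mb. Domains were also called from each replicate by itself, those with dim input included, and most were raised in the other replicate. Of 4153 domains called from replicate 1, 98.7% had a mean of 1 or more in replicate 2. Of 4535 called from replicate 2, 87.2% had one in replicate 1. Among all single probes, 29.9% of those of replicate 2 and 27.2% of those of replicate 1 lay at 1 or more, which is a share of probes and not of runs.

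**Figure D3:**
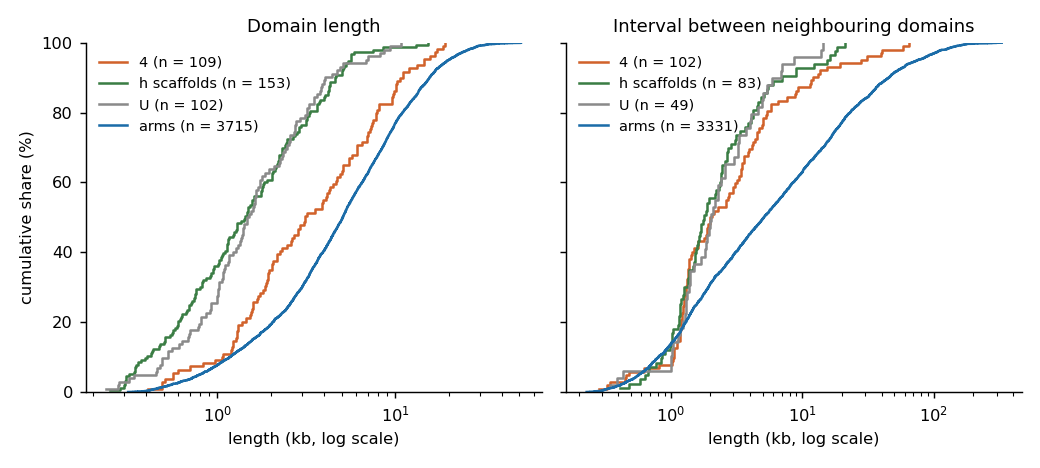
Cumulative share (%) of domains by length (left) and of intervals between neighbouring domains by length (right), on logarithmic axes in kb, for chromosome 4, the h scaffolds, U and the 5 arms. Domains on the arms are the longest, with a median of 5079 bp, and the intervals between them run up to 328 kb.

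Long domains were more strongly marked than short ones. Domains under 2 kb made up 22.4% of all and 3.80% of the covered length, and had a median level of 1.55 in replicate 1 and 1.86 in replicate 2. Domains of 2 to 5 kb had a median level of 2.92 and 3.34, those of 5 to 10 kb 3.71 and 4.22, those of 10 to 20 kb 3.99 and 4.49, and those of 20 kb and over 4.10 and 4.60. The moving average reached 3.5 at its maximum in 9.30% of domains under 2 kb, in 63.1% of those of 2 to 5 kb, in 93.8% of those of 5 to 10 kb and in all 184 of 20 kb and over. The increase was steep up to 10 kb and small beyond it. The mean of a short domain includes relatively more of its borders, and its maximum is taken over fewer probes.

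Domains were shorter outside the arms. Their median length was 3132 bp on chromosome 4, 1439 bp on the h scaffolds and 1487 bp on U, against 5079 bp on the arms, where it ranged over 4905 bp on X and 5345 bp on 3R. On chromosome 4, 109 domains held 56.5% of the probes, and 13.8% of them were 10 kb or longer. The h scaffolds had 153 domains with 31.0% of their probes, of which 27.5% reached 3.5 at their maximum, against 69.7% of the 3715 domains of the arms. Domain lengths outside the arms were limited by the tiling: 75.3% of the domains there, chromosome 4 included, ended at a stretch of over 1000 bp without probes or at the end of a sequence, against 9.31% on the arms. Domain lengths on chromosome 4 and the scaffolds are therefore lower limits for many domains, while those of the arms are mostly set by the level.

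The 5 longest domains with measured input lay on 5 different arms. The longest was chr3L:16026448-16077632 (51.2 kb, 217 probes), at a mean level of 3.67 in replicate 1 and 4.24 in replicate 2, 3.95 ± 0.40 (SD, n = 2), and 65.0% of its probes lay at 3.5 or more. Next came chr2L:11088929-11139591 (50.7 kb) at 4.30 in replicate 1 and 4.76 in replicate 2, chr3R:11154566-11200604 (46.04 kb) at 3.89 and 4.33, chrX:15547473-15593073 (45.6 kb) at 4.41 and 4.97, and chr2R:9366894-9412059 (45.2 kb) at 3.81 and 4.29. Dim input was rare in them (0.50% to 1.55% of the probes of a domain), and the input had medians of 1344 to 1651 in replicate 1 and 928 to 1174 in replicate 2. None was uniform: 1 probe in 10 lay below a level of 1.61 to 2.30, depending on the domain. The size of these levels depended on the processing: the 5 domains averaged 2.10 to 3.18 with normexp, and with loess 1.36 on X, 1.31 on 3L, 1.26 on 2L, 1.01 on 2R and 0.97 on 3R, the last below the threshold of 1.

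**Figure D4:**
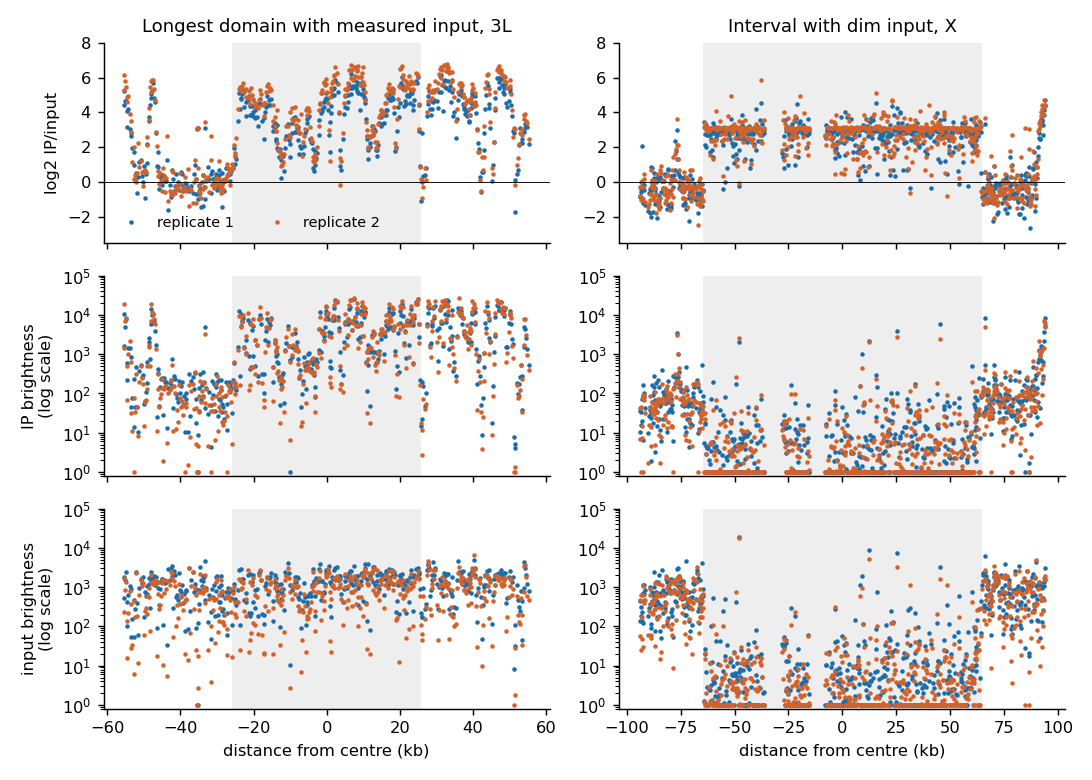
Level (log2 IP/input), IP brightness and input brightness of single probes along the longest domain with measured input on 3L (left) and the dim interval on X (right), by distance from its centre in kb, for both wild type replicates. Grey marks the interval, brightness is on a log scale and values below 1 are drawn at 1. On 3L the IP rises over an even input, while on X both channels fall to near background at the same 2 ends and the level sits near 3.

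Levels changed within a short distance of a domain border. Borders were called in 1 replicate and levels read in the other, so that the values did not set the border. With borders from replicate 1, the mean level in replicate 2 was 0.29 at 500 to 1000 bp outside, 0.66 within 500 bp outside, 1.99 within 500 bp inside, 3.55 at 500 to 1000 bp inside and 4.77 at 2 to 3 kb inside. With borders from replicate 2, the levels in replicate 1 at the same 5 places were 0.05, 0.34, 1.47, 2.82 and 4.04. Most of the change thus fell in about 1 kb on the inner side of the called border. A border lay where a 5-probe moving average reached 1, far below the level inside. The side and the width of the change therefore follow in part from the calling rule. The chromatin was sheared to about 500 bp, and the share of either in the profile was not tested. The profile was alike for domains of 5 to 10, 10 to 20 and 20 kb and over, whose levels at 500 to 1000 bp inside were 3.66, 3.67 and 3.61 in replicate 2 and 2.97, 3.08 and 3.04 in replicate 1. In domains under 2 kb the level there was lower, 2.73 in replicate 2 and 1.89 in replicate 1.

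**Figure D5:**
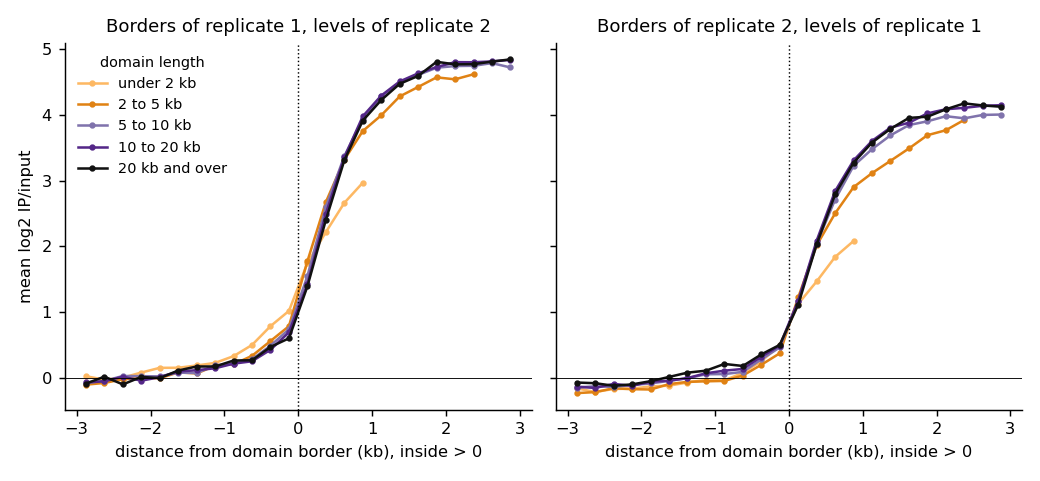
Mean log2 IP/input by distance from the border of a domain (kb, inside positive) for 5 classes of domain length, with borders called in one wild type replicate and levels read in the other. Domains of 5 kb and over follow 1 curve, from near 0 outside to above 4.7 inside in replicate 2 and about 4 in replicate 1, and domains under 2 kb stay lower.

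Many domains were higher at one end. In the 1947 domains of 5 kb and over, the left 33.3% of the length differed from the right 33.3% by a median of 0.70 in replicate 1 and 0.78 in replicate 2, whichever was higher, while the 2 replicates differed from each other in this measure by a median of 0.15. Both replicates put the higher level at the same side in 1828 domains (93.9%). In 292 domains the left side was higher by over 1 in both replicates and in 353 the right side. Both replicates were read on the same probes, whose levels also moved with probe length. The part of the probes in these differences was not tested. H3K36me3 is known to be stronger toward the 3′ ends of genes, but the direction of transcription could not be set against these slopes.

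Domains on the arms were spaced unevenly. The 3331 intervals between neighbouring domains of the arms that held no tiling gap over 5 kb had a median of 5108 bp, 31.0% were shorter than 2 kb, and 8.59% were 50 kb or longer and made up 49.3% of the length between domains. Their SD was 1.78 times their mean. Intervals on chromosome 4 had a median of 2039 bp, and 2 of 102 reached 50 kb. An interval could also be a gap in the tiling: 38 of those 102 held no probe, as did 99 of the 3331 on the arms, and over intervals with probes the median was 3441 bp on chromosome 4, against 5570 bp on the arms. Levels between domains were lower in longer intervals: the median over probes was 0.49 in replicate 1 and 0.61 in replicate 2 in intervals under 2 kb, 0.21 and 0.26 in those of 2 to 10 kb, −0.21 and −0.22 in those of 10 to 50 kb and −0.40 and −0.43 in those of 50 kb and over. All probes of a short interval lie near a domain border, where levels were raised on the outside as well. The part of this nearness in the medians was not tested.

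The 5 longest intervals without a domain lay on X, 3R, 2L (2 of them) and 3L. The longest, chrX:7189086-7516718 (328 kb, 1360 probes), averaged −0.43 in replicate 1 and −0.35 in replicate 2. The interval chr3R:19205619-19505410 (299.8 kb) averaged −0.47 and −0.46, chr2L:18154764-18436577 (282 kb) −0.50 and −0.38, chr2L:15767056-16041895 (275 kb) −0.39 and −0.30, and chr3L:13092642-13353071 (260.4 kb) −0.42 and −0.34. Between 1.80% and 3.93% of their probes had a mean level of 1 or more, so single raised probes remained that formed no run.

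On the scale of 100 kb the marked share varied over almost its whole possible range. Of 1154 bins of the arms with at least 100 probes, 146 had no probe in a domain and 153 had at least 50.0% of their probes in domains, with a median of 21.3% and a highest share of 88.5%. The bin of highest mean level of each arm was chrX:1700001-1800000 (3.77 in replicate 1 and 4.17 in replicate 2), chr3R:1400001-1500000 (3.65 and 4.11), chr2L:10200001-10300000 (3.503 and 4.02), chr2R:4600001-4700000 (3.46 and 3.92) and chr3L:3100001-3200000 (3.06 and 3.42). The lowest bin of an arm was chr3R:24200001-24300000, at −0.63 in replicate 1 and −0.59 in replicate 2. None of the 13 bins of chromosome 4 was free of domains. The lowest of them had 20.7% of its probes in domains and the highest 83.9%.

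The ends of the arms were not alike. In the 1 Mb next to the centromere, 2R averaged 1.25 in replicate 1 and 1.54 in replicate 2, against 0.87 and 1.04 in the rest of that arm, and 3R 1.07 and 1.27, against 0.63 and 0.79. This zone was thinly tiled on 2R, with 1105 probes, against 2338 to 3589 on the other arms. On 2L (0.63 and 0.86), 3L (0.66 and 0.88) and X (0.76 and 0.98) the mean of the same zone differed from that of the rest of its arm by under 0.15 in each replicate. Its median level was nonetheless higher on 2L, at 0.13 in replicate 1 and 0.23 in replicate 2, against −0.10 and −0.09 in the rest, and on 3L, at 0.16 and 0.21, against −0.05 and −0.07. Both had more probes at 1 to 3.5 there (16.3% against 11.2% on 2L, 17.0% against 11.6% on 3L) and fewer at 3.5 or more (10.6% against 13.5%, and 11.3% against 14.5%). Near the centromere of 2R 27.5% of probes lay at 1 to 3.5, against 13.1% in the rest of the arm, and 15.7% at 3.5 or more, against 17.9%. In 3R both shares were larger near the centromere, 15.2% and 20.3%, against 11.03% and 14.9%. The last 500 kb at the other end were raised most on 2L, at 1.65 in replicate 1 and 1.86 in replicate 2, against 0.57 and 0.74 in the rest of the arm, and on 3L, at 1.37 and 1.56, against 0.63 and 0.81.

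Levels of nearby probes were related over about 10 kb. The correlation between the level of a probe in 1 replicate and that of another probe in the other replicate was, on the arms, 0.95 for the same probe, 0.85 at 0.5 kb, 0.67 at 2 kb, 0.48 at 5 kb, 0.33 at 10 kb and 0.20 at 20 kb, and 0.03 at 100 kb (Pearson's r over 410909 to 458937 probe pairs, which are not independent). On chromosome 4 it was 0.96 for the same probe, 0.68 at 2 kb and 0.31 at 10 kb. By rank the agreement on the arms was lower at short range. Spearman's rho there was 0.80 for the same probe, 0.61 at 0.5 kb, 0.54 at 2 kb and 0.42 at 5 kb. At 10 kb it was 0.31, close to Pearson's r. Over 2 kb windows the replicates had a Pearson's r of 0.99 and a Spearman's rho of 0.88, and the SD of the difference of replicate 2 minus replicate 1 was 0.33. These correlations describe agreement across places and share the array designs and their probes.

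The spread between replicates depended on the level. Replicate 2 minus replicate 1 had a mean of 0.63 and an SD of 0.35 over the 72313 probes at 3.5 or more, a mean of 0.36 and an SD of 0.65 at 1 to 3.5, a mean of 0.11 and an SD of 0.73 at 0 to 1, a mean of −0.02 and an SD of 0.65 at −1 to 0, and a mean of 0.17 and an SD of 0.69 below −1 (probes with measured input). High probes were thus the most repeatable apart from a common shift. Between −1 and 1 the SD was large against the narrow low population, and rank agreement among low probes alone was not computed. Among the low probes the IP was dim, with a median of 89.8 in replicate 1 and 66.6 in replicate 2 at −1 to 0, against 5875 and 6317 at 3.5 or more.

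Probe length moved with the level. Probes of 45 bases averaged 2.05 in replicate 1 and 2.36 in replicate 2, those of 46 to 50 bases 1.51 and 1.70, those of 51 to 55 bases 0.85 and 0.94, those of 56 to 59 bases 0.43 and 0.46, and those of 60 bases 0.52 and 0.71. A level of 3.5 or more was held by 34.9% of 45-base probes and 11.4% of 60-base probes. The input of short probes was brighter too, with a median of 1863 in replicate 1 and 1539 in replicate 2 at 45 bases, against 659 and 406 at 60 bases. The part of base composition in the levels was not tested, since no probe sequence was at hand. Chromosome 4 had a larger share of 60-base probes (91.5%) than the arms (68.1%), and among 60-base probes alone it averaged 1.89 and 2.34, against 0.49 and 0.68 on the arms. Among the same probes 3h averaged 0.75 and 1.00 and U 0.77 and 1.05, further above the arms than over all lengths. Xh averaged 1.33 and 1.65 there, 2h 1.495 and 1.86, and Yh stayed below the arms at 0.04 and 0.30.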

How the data were processed

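H3K36me3 IP (Cy5) and input DNA (Cy3), both amplified by ligation-mediated PCR, were hybridized to 2 designs of 2-colour Agilent tiling arrays in 2 wild type and 2 dKDM4A mutant samples, without a dye swap. The authors deposited intensity values from Feature Extraction 10.5.1.1, per the file headers with background subtraction and linear dye normalization, and a table of log2 IP/input values, for which the labels name limma. The genome build of the array coordinates was not given in the sources used here.

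For each of the 4 wild type arrays, log2 of the processed IP intensity over the processed input intensity was computed, control and outlier spots were left out, and the array median was subtracted. The deposited log2 ratios served as an alternative. Levels are means of 2 replicates with their SD. Windows of 2 kb with at least 3 probes were tested with limma 3.58.1 (R 4.3.3; genotype means over all 4 samples, wild type mean against 0, variance trend, Benjamini-Hochberg adjusted p of 0.05). The fit pooled its variance over all windows, so p-values rest little on the 2 replicates of a single window. Domains were called as described, without a test. Both procedures were tested on simulated data with independent noise. That test did not cover the correlation between neighbouring probes or between samples that these data hold. The simulated domains all had the same number of probes and lay far above the threshold, so short or weak domains were not covered either.

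Windows named were the 10 with the highest wild type mean among those above the median with at least 5 probes, of which at least 80% were well above background in the input of both replicates, and the highest such window of each sequence with at least 20 windows. The 5 longest domains and the 5 longest intervals between domains without a tiling gap over 5 kb were named as well. The members, lists and rules were chosen with earlier results of these data known. Alternatives were normexp with an offset of 50, loess with a span of 0.3, other centring and scaling, filters on dim probes, other domain and window settings, and leaving out each replicate. Precision is limited by 2 replicates. Gene lists fixed earlier were not used here, since probes could not be placed in genes.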

Additional observations from a re-analysis of the deposited data

How the results depend on the processing

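Chromosome 4 and the h scaffolds stayed above the arms under every alternative run, and the number of domains stayed within 1.5 times of 4127 in all but loess. The cause of the differences listed was not tested. The share of probes at 1 or more was 27.9%, and it was 25.5% with normexp, 15.3% with loess, 24.1% without centring and 32.3% with mode centring, and 27.2% to 29.9% with either replicate left out. The excess over the arms was 0.91 for chromosome 4 and 0.12 for the h scaffolds with normexp, against 1.34 and 0.41, and with normexp 3h lay at −0.070, U at −0.17 and Yh at 0.024 relative to the arms. Loess, which bends each array toward equal ratios at every brightness, gave 6424 domains in place of 4127, with a median length of 1219 bp in place of 4629 bp. The median length was 3640 bp with normexp, 4349.5 bp with mode centring, 4852 bp with only probes well above background in both channels, 3912 bp at a threshold of 0.5, 4232.5 bp at a threshold of 2, 3662 bp without smoothing, 5712 bp with a 9-probe moving average, 4126 bp and 4957 bp at maximum gaps of 500 and 2000 bp, 5155 bp with runs of at least 5 probes, and 4330 to 4578 bp with either replicate left out. Windows above the median numbered 13111 with normexp, and windows below it 15394 with loess, 37035 without centring and 3575 with mode centring. Leaving out a replicate gave 17334 to 19068 windows above and 17946 to 19094 below, where a lone wild type sample was assumed to vary like the others. With loess the window chr3L:17518001-17520000 lay at −0.029 and that of Yh at −0.073, and chr3L:6722001-6724000, chrX:4526001-4528000 and the highest window of 2h lost their calls, as that of Yh did with normexp. With mode centring the longest interval without a domain, on X, lay at 0.028 and that on 3L at 0.040. Wild type and mutant samples of the same replicate number shared a scan day, and their deviations correlated (r = 0.65 over windows). With a replicate block 20886 windows were above and 26274 below. Removing probes without measured input and domains or windows with dim input was chosen after seeing the data, and left 4083 and 4079 domains and 19383 and 19023 windows above. The depth of low levels was limited by the IP channel, in which up to 14.4% of the probes of an array were not well above background.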
